A study of Mus musculus with 6 samples.

Results

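The genes described here are those of cholesterol synthesis and its control, with a pair of sterol transporters. They were chosen by name, as 27 of the 21983 gene symbols in the count table of the study. Of these, 26 had enough reads to be tested. Farnesyl diphosphate synthase (Fdps) did not, with 13, 25 and 8 counts in the control livers and 4, 5 and 1 in the others. RNA of whole liver was sequenced from 6 C57BL/6 mice, 1 library per mouse. All 6 carried a floxed Prmt1 allele and had drunk thioacetamide (TAA), a liver toxin that causes fibrosis, at 400 mg/L for 16 weeks, and the labels give an age of 10 weeks without saying at which point, and no sex. In 3 mice (49, 82 and 88, labelled Lrat-Cre; Prmt1f/f and called Cre livers here) a Cre recombinase was driven from Lrat, a gene that marks hepatic stellate cells. The other 3 mice (42, 83 and 90, labelled Prmt1f/f) had no Cre in their label and are called control livers. There was no liver without TAA, so the effect of the toxin was not measured.

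Cells build cholesterol from acetyl-CoA through mevalonate, isoprenoid diphosphates, squalene and lanosterol. The genes for these enzymes are switched on by the transcription factor SREBP2, encoded by Srebf2. When sterols are scarce, SCAP carries SREBP2 from the endoplasmic reticulum to the Golgi, where it is cut and freed. When sterols are plentiful, the INSIG proteins hold SCAP back. In liver most of this synthesis takes place in hepatocytes, while Lrat drives Cre in stellate cells. In whole tissue, fewer cells of a type and less RNA per cell cannot be told apart.

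The libraries held 13303884 to 16462278 counts. Levels are given as CPM, counts scaled to a common library size with TMM factors, and differences as log2 of Cre over control from edgeR's quasi-likelihood fit over 13153 genes. Adjusted p-values are Benjamini-Hochberg values over all those genes. Prmt1 itself, the targeted gene, was at 38.9, 44.4 and 49.8 CPM in control livers 42, 83 and 90 and at 35.8, 24.7 and 25.8 CPM in Cre livers 49, 82 and 88, so the groups did not overlap (log2 fold change -0.62, edgeR adjusted p 0.347). No gene of the table passed an adjusted p of 0.05 in edgeR, while 782 were lower and 666 higher at an unadjusted p under 0.05. DESeq2 called 238 genes, 0.936% of those tested as lower and 0.875% as higher. Libraries 42 and 49, of different genotypes, lay close to each other, and so did 82 and 88, though no pair agreed within sampling noise. Liver 49 stood apart from the other Cre livers in most of the genes below, and the results that rest on it are given with and without it. The 6 hepatocyte markers were all detected. Their summed level, most of it Alb, was 63059 to 100054 CPM in control and 74465 to 87227 CPM in Cre livers. Their mean log2 CPM was 0.32 higher in Cre livers, with 3 of 6 positive. Relative to the control mean it was 0.004, -0.58 and 0.58 in control livers 42, 83 and 90. It was 0.19, 0.43 and 0.35 in Cre livers 49, 82 and 88, inside the control range. Apoa1 (log2 fold change -0.42), Serpina1a (-0.07) and Ttr (-0.05) were negative, and Alb (0.10), Hnf4a and Cyp2e1 were positive. Hnf4a was at 789.8, 521 and 565 CPM in control and 952, 952 and 1049.9 CPM in Cre livers, which did not overlap (log2 fold change 0.65, edgeR adjusted p 0.384), and Cyp2e1 was at 1166, 363 and 1992 and 1898, 3292 and 2512 CPM, which did (1.13, edgeR adjusted p 0.466). The part of hepatocyte content in the levels below was not tested.

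The data showed a cholesterol pathway that was low in Cre livers 82 and 88. In Cre liver 49 its mean was close to that of control liver 42 and just above it (0.31 against 0.19 log2 CPM, relative to the control mean). Of the 26 genes tested, 21 had a negative log2 fold change, against 52.7% of all genes tested, and the median was -0.42, against -0.02 over all genes. None passed an adjusted p of 0.05 with edgeR, where the background was 0% of all genes, and DESeq2 and limma-voom called none either. At an unadjusted p under 0.05, 1 gene (Insig1) was lower, where 5.95% of all genes were, and none was higher, where 5.06% were. The groups did not overlap in 1 gene that was lower (Insig1; background 7.95%) and 1 that was higher (Ggps1; background 8.94%). With 1 of 26 genes in each direction, neither count stood above its background.

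The mean of log2 CPM over the 26 genes, taken relative to the control mean, was 0.19, -0.04 and -0.15 in control livers 42, 83 and 90. It was 0.31 in Cre liver 49, -0.73 in 82 and -1.01 in 88. Liver 49 thus had the highest mean of the 6 livers and the other Cre livers the lowest. Liver 49 was the highest of all 6 in 16 of 26 genes, against 18.2% of all genes, and among the lowest pair in none. Liver 88 was the lowest of all in 18 genes, and livers 82 and 88 were among the lowest pair in 19 and 21. The shares of all genes for these counts of livers 82 and 88 were not taken. Whether they are particular to these genes can therefore not be told from the counts.

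**Figure D1:**
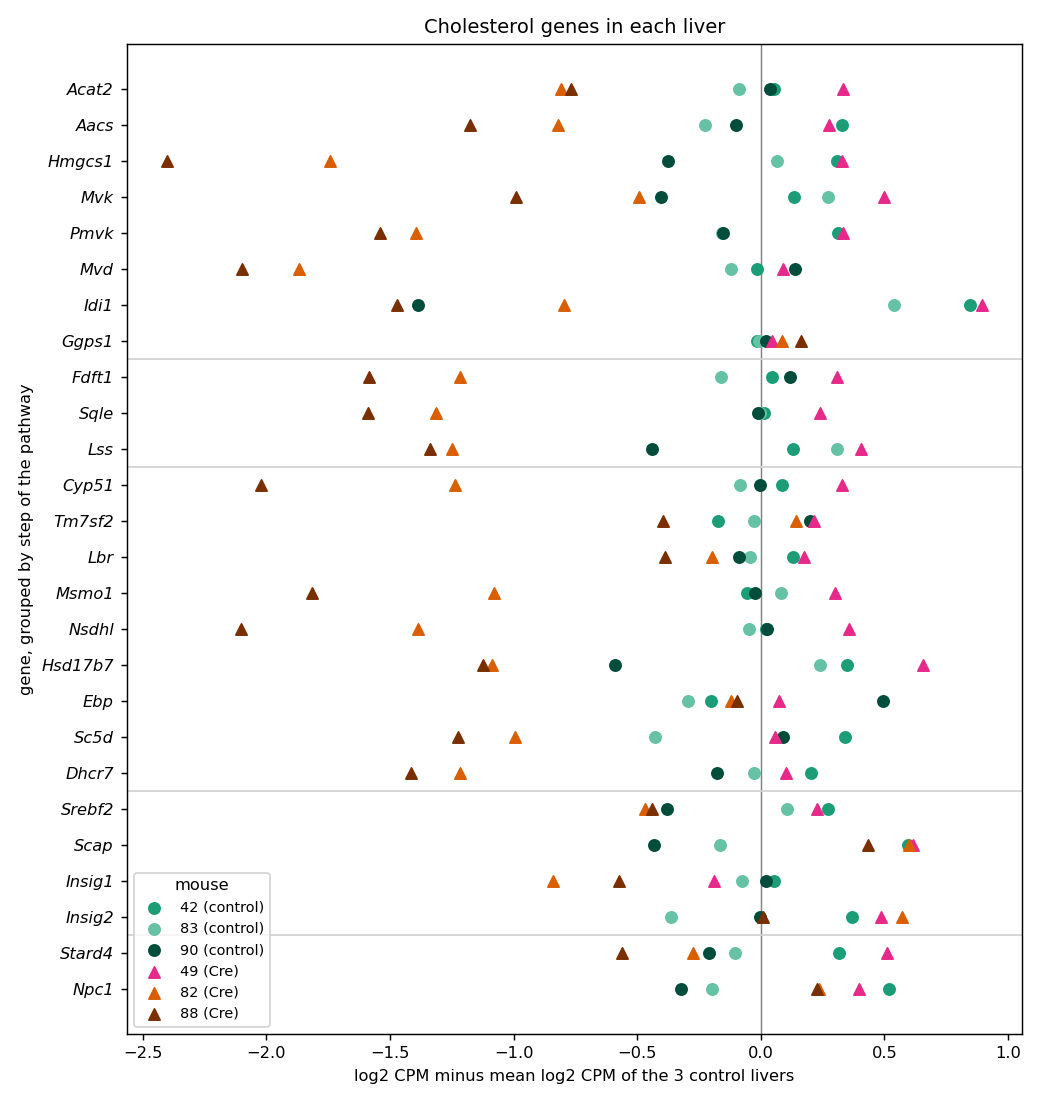
Level of each of the 26 tested genes in each liver, as log2 CPM minus the mean log2 CPM of the 3 control livers (x axis), with genes on the y axis grouped by step of the pathway. Circles are control and triangles Cre livers; in most enzymes livers 82 and 88 lie to the left of every control liver while liver 49 lies with or to the right of them.

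The first enzymes turn acetyl-CoA into mevalonate and then into the isoprenoid building blocks. Hmgcs1, which condenses acetoacetyl-CoA with acetyl-CoA, was at 723, 610.4 and 449.6 CPM in control livers 42, 83 and 90. It was at 733, 174 and 110.5 CPM in Cre livers 49, 82 and 88. Liver 49 was the highest and livers 82 and 88 the lowest of the 6, and Hmgcs1 differed 6.64-fold between the highest and the lowest Cre liver, against 1.61-fold among control livers. Its log2 fold change was -0.81 (SE 0.62, 95% interval -2.21 to 0.59, edgeR adjusted p 0.632), and -2.06 without liver 49 (edgeR adjusted p 0.0821). An antisense gene overlaps Hmgcs1, and its reads cannot be told apart without a known strand setting. The same limit holds for Mvd, Idi1, Lss, Cyp51, Lbr, Scap and Insig2, each of which overlaps a gene on the other strand.

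Mvd, which decarboxylates mevalonate diphosphate to isopentenyl diphosphate, had the largest negative fold change of the 26 genes. Its level was 37.9, 35.2 and 42.1 CPM in control livers and 40.8, 10.5 and 8.94 CPM in Cre livers 49, 82 and 88. Liver 49 lay inside the control range and the other Cre livers far under it. The log2 fold change was -0.93 (SE 0.51, edgeR adjusted p 0.525), and without liver 49 it was -1.98 with an edgeR adjusted p of 0.0309. Mvd was the only one of the genes to pass in any of the alternatives run, and a background of 0.0299% of genes was called lower in that one.

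Pmvk, the kinase that acts just before Mvd, was at 78.1, 56.4 and 56.6 CPM in control and 79.1, 23.9 and 21.6 CPM in Cre livers 49, 82 and 88, with liver 49 the highest and 82 and 88 the lowest (log2 fold change -0.61, and -1.48 without liver 49). Mvk, mevalonate kinase, was at 38.5, 42.3 and 26.5 CPM in control and 49.6, 25 and 17.7 CPM in Cre livers. Its log2 fold change was -0.22, and it ran from -0.75 without liver 49 to 0.03 without liver 88. Here too liver 49 was the highest of the 6 and livers 82 and 88 the lowest.

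Idi1, the isomerase of isopentenyl diphosphate, broke this order among control livers. It was at 56.1, 45.3 and 11.9 CPM in control livers 42, 83 and 90, so that liver 90 lay with Cre livers 82 and 88 (Cre livers 57.9, 18 and 11.2 CPM). Its log2 fold change of -0.38 (SE 0.66) was 0.02 without control liver 42 and -1.37 without Cre liver 49. Idi1 shares 684 bases at 100% identity with the processed pseudogene Gm13502, so its counts are uncertain.

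Acat2, the cytosolic thiolase that makes acetoacetyl-CoA, had 95.4 ± 5.0 CPM in control and 76.9 ± 37.5 CPM in Cre livers (SD, n = 3). Its 3 control livers spanned 89.7 to 98.9 CPM, with liver 49 above them at 120.2 and livers 82 and 88 below them at 54.4 and 56 CPM (log2 fold change -0.31, and -0.79 without liver 49). Acat2 is 97.7% identical to Acat3 over 1477 bases, and its counts are uncertain for that reason. Aacs, which activates acetoacetate, had 81.1 ± 17 CPM in control and 59.2 ± 33 CPM in Cre livers (SD, n = 3). It was highest in control liver 42 and lowest in livers 82 and 88 (log2 fold change -0.45, and -1.01 without liver 49).

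Ggps1, which makes geranylgeranyl diphosphate for protein prenylation instead of sterol, did not follow the others. It was at 14.3, 14.4 and 14.7 CPM in control and 14.9, 15.4 and 16.2 CPM in Cre livers, a narrow range in both groups. All Cre livers lay above all control livers, yet the log2 fold change was only 0.10 (SE 0.18, edgeR adjusted p 0.849), and it was -0.05 with total counts as the only scaling. Ggps1 overlaps Arid4b on the other strand and has a processed pseudogene, so its counts are uncertain.

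Fdps, which joins isopentenyl units into farnesyl diphosphate, had the few counts given at the start. Transcripts of 4 processed pseudogenes and of the overlapping gene Gm43738 are over 95% identical to it across at least 605 bases. How reads with several matches were counted is not given in the sources used here, and no level is drawn for Fdps.

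**Figure D2:**
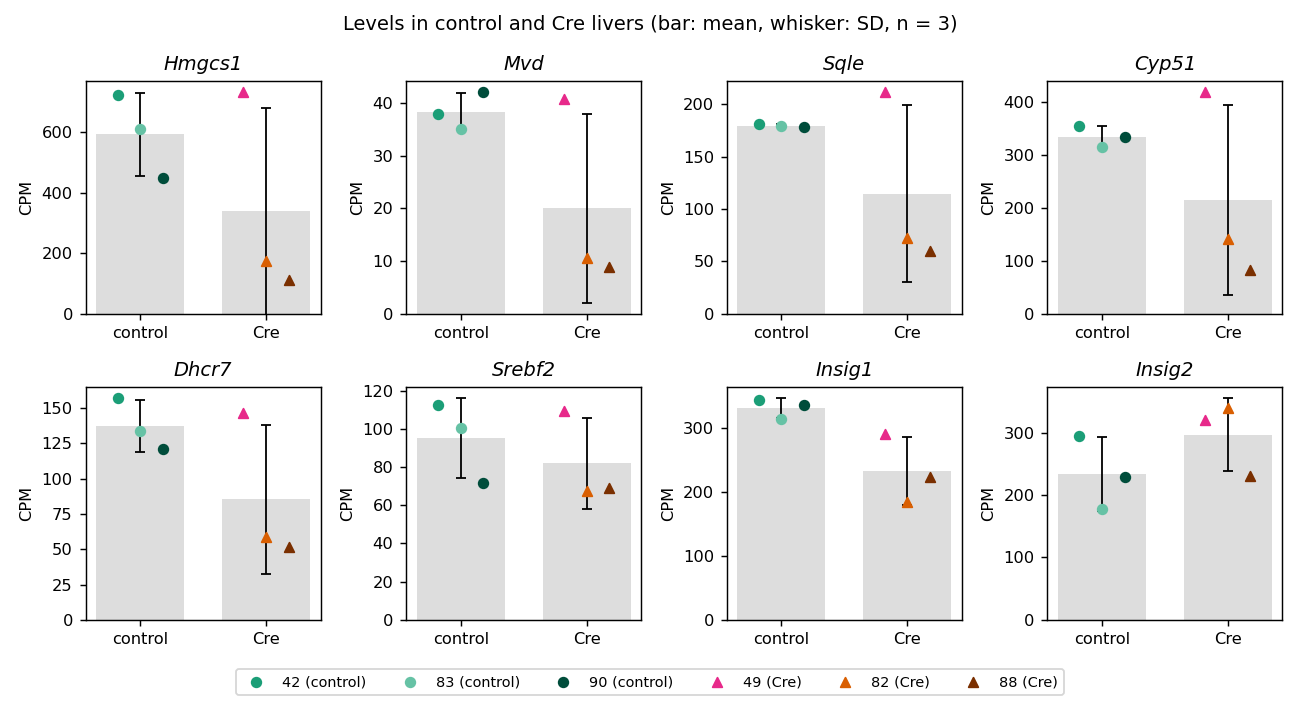
CPM of 8 genes (y axis, linear from 0) in control and Cre livers (x axis). Bars are means, whiskers SD over 3 livers and points single livers. The whisker of Hmgcs1 in Cre livers (mean 339, SD 343) reaches below 0 and is cut by the axis. For Hmgcs1, Mvd, Sqle, Cyp51 and Dhcr7 liver 49 sits at or above the control level and livers 82 and 88 far below it, while for Insig1 all Cre livers sit below all control livers.

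The next 3 enzymes commit farnesyl diphosphate to sterols. Sqle, squalene epoxidase, an enzyme that limits the flow of the later pathway, was almost equal in control livers 42, 83 and 90 at 181, 179 and 178 CPM. In Cre livers 49, 82 and 88 it was at 212, 72.2 and 59.7 CPM. Cre livers thus lay on both sides of a control range that spanned 1.01-fold. The log2 fold change was -0.65 (SE 0.43, edgeR adjusted p 0.595) and -1.44 without liver 49 (edgeR adjusted p 0.0737).

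Fdft1, squalene synthase, was at 229.7, 199 and 242 CPM in control and 275, 95.8 and 74.1 CPM in Cre livers. Lss, which cyclizes the epoxide to lanosterol, was at 107, 121 and 72.2 CPM in control and 129.7, 41.2 and 38.8 CPM in Cre livers. Both were highest in liver 49 and lowest in liver 88, with log2 fold changes of -0.59 and -0.52, and -1.39 and -1.32 without liver 49. Fdft1 overlaps Ctsb on the other strand and has a processed pseudogene that is 97.4% identical over 1249 bases, which makes its counts uncertain.

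Lanosterol becomes cholesterol through demethylation, reductions and shifts of double bonds. Cyp51, the lanosterol demethylase, was at 354, 315 and 333 CPM in control livers 42, 83 and 90. It was at 418, 141 and 82.2 CPM in Cre livers 49, 82 and 88 and differed 5.09-fold among them, against 1.13-fold among control livers. Its log2 fold change was -0.64 (SE 0.51, edgeR adjusted p 0.646), and -1.58 without liver 49 (edgeR adjusted p 0.0928). Msmo1 and Nsdhl, which act in turn to remove the methyl groups at carbon C4, showed the same pattern.

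Msmo1 was at 224, 247 and 229 CPM in control and 287, 110.3 and 66.2 CPM in Cre livers 49, 82 and 88. Nsdhl was at 89.3, 85 and 89.4 CPM in control and 112, 33.6 and 20.5 CPM in Cre livers, a 5.5-fold range among Cre and a 1.05-fold range among control livers. In both genes the control livers were close together, liver 49 lay above them and the other Cre livers below. Their log2 fold changes were -0.59 and -0.66, and -1.40 and -1.70 without liver 49.

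Hsd17b7, the ketoreductase of the same complex, had 78.6 ± 24.8 CPM in control and 63.2 ± 48.6 CPM in Cre livers (SD, n = 3; log2 fold change -0.31, and -1.16 without liver 49). Control liver 90, at 50.3 CPM, was nearer to Cre livers 82 and 88 than to the other control livers. Dhcr7, which reduces 7-dehydrocholesterol in the last step, was at 157, 134 and 121 CPM in control and 146, 58.7 and 51.2 CPM in Cre livers 49, 82 and 88. For Dhcr7 liver 49 lay inside the control range, and the log2 fold change was -0.68 (SE 0.38, edgeR adjusted p 0.526), and -1.32 without liver 49. Sc5d, the desaturase that makes 7-dehydrocholesterol, was at 465, 273 and 392 CPM in control and 382, 185 and 157 CPM in Cre livers (log2 fold change -0.64, and -1.14 without liver 49). Livers 82 and 88 were again the lowest of the 6.

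Ebp, Tm7sf2 and Lbr were the post-lanosterol genes that moved least. Ebp, the sterol isomerase, had 161 ± 51.1 CPM in control and 151 ± 11.3 CPM in Cre livers (SD, n = 3; log2 fold change -0.09), with the highest value in control liver 90 and a log2 fold change of 0.16 without that liver. Tm7sf2 and Lbr both reduce the double bond at carbon C14. Tm7sf2 had 92.3 ± 12.1 CPM in control and 92.5 ± 19.9 CPM in Cre livers, and its log2 fold change of 0.0046 took the other sign in 9 of 14 alternatives. Lbr, which is also a protein of the nuclear envelope, had 23.7 ± 1.92 CPM in control and 21.8 ± 4.4 CPM in Cre livers (log2 fold change -0.12, and -0.29 without liver 49). The 95% intervals with all livers were -0.64 to 0.46, -0.47 to 0.48 and -0.57 to 0.33. Each holds 0, and changes in either direction within these intervals are compatible with the data.

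The 4 regulators of SREBP differed among themselves, with 2 negative and 2 positive log2 fold changes. Srebf2 was at 113, 101 and 71.9 CPM in control livers 42, 83 and 90 and at 109, 67.6 and 68.9 CPM in Cre livers 49, 82 and 88. Livers 82 and 88 were the lowest of the 6, as in most enzymes, with control liver 90 just above them, and the log2 fold change was -0.21 (SE 0.25, edgeR adjusted p 0.757), and -0.48 without liver 49 (edgeR adjusted p 0.466). Scap was at 143, 84.5 and 70.2 CPM in control and 145, 143 and 128 CPM in Cre livers, with control liver 42 among the Cre values (log2 fold change 0.48, SE 0.27). Livers 82 and 88 therefore had Srebf2 below and Scap above the means of the control livers.

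The INSIG genes differed from each other. Insig1, itself a target of SREBP, was at 343, 314 and 336 CPM in control and 290.3, 185 and 223 CPM in Cre livers 49, 82 and 88. All Cre livers lay below all control livers, liver 49 included. Its log2 fold change was -0.51, with an SE of 0.22 and a 95% interval of -1.01 to -0.0074, and the edgeR adjusted p was 0.450. It ran from -0.70 without liver 49 to -0.39 without liver 82. The unadjusted p was 0.0474 with all livers and lay above 0.05 without liver 42, 83, 82 or 88. Insig2, whose liver transcript is known to respond to insulin and fasting, was at 295, 178 and 228 CPM in control and 321, 339.6 and 231 CPM in Cre livers. Its groups overlapped (log2 fold change 0.34, SE 0.25, edgeR adjusted p 0.624).

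The ratio of Insig2 to Insig1, each per length of its exons, does not depend on how libraries are scaled. It was 0.766, 0.504 and 0.605 in control livers 42, 83 and 90 and 0.984, 1.64 and 0.923 in Cre livers 49, 82 and 88. All Cre livers lay above all control livers, in liver 49 as in the others. The mean ratio was 0.625 ± 0.132 in control and 1.18 ± 0.397 in Cre livers (SD, n = 3). The log2 ratio differed by 0.89 on average. An exact two-sided permutation test gave p = 0.1, and no smaller value can come from 20 assignments. Groups of 3 that do not overlap always give this value, so the test adds nothing to that separation. This ratio was the only one tested and was chosen after the values of both genes had been seen. The difference was 0.63 without liver 82 and 1.05 without liver 42, and since the groups do not overlap its direction could not turn.

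The sterol transport genes overlapped between genotypes. Stard4, which carries sterol between membranes in the cytosol, had 125 ± 25.2 CPM in control and 120.4 ± 48.8 CPM in Cre livers (SD, n = 3). It was highest in liver 49 and lowest in liver 88, and its log2 fold change of -0.05 was positive without liver 42, 82 or 88 and -0.43 without liver 49. Npc1, which exports cholesterol from lysosomes, was at 162, 98.7 and 90.3 CPM in control and 149, 133 and 132 CPM in Cre livers. Control liver 42 was the highest, and the log2 fold change was 0.24 (SE 0.24), and 0.55 without that liver. Npc1 overlaps Rmc1 and an antisense gene on the other strand, so its counts are uncertain.

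With liver 49, the Cre livers differed among themselves more than the control livers did in most of these genes. In 22 of 26 genes the SD of log2 CPM was larger among Cre than among control livers, against 36.6% of all genes. The median SD over the 26 genes was 0.755 in Cre and 0.274 in control livers, and over all genes it was 0.224 and 0.321. Without liver 49 the count was 12 of 26 (46.2%), against 19.3% of all genes. The median SD in the remaining Cre livers was then 0.177 over the 26 genes and 0.122 over all genes. That SD is taken over fewer Cre than control livers, so these values cannot be set directly against those with liver 49. With all livers, Scap, Npc1, Ebp and Insig2 were the 4 genes with the larger SD in control livers. For the 3 enzymes from farnesyl diphosphate to lanosterol the list mean was 0.06, 0.05 and -0.11 in control livers and 0.32, -1.26 and -1.50 in Cre livers 49, 82 and 88, relative to the control mean of log2 CPM. For the 4 SREBP regulators the same values were 0.28, -0.04 and -0.14 in Cre livers, inside the control range.

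Most of the enzymes no longer overlapped between genotypes without liver 49. Liver 49 is the Cre liver that was highest in 16 of these same genes, so the counts without it describe how far they rest on that liver and are no independent test. All 27 genes could then be tested, and in 20 both remaining Cre livers lay below all control livers, against 17.2% of all genes. In 1 (Ggps1) they lay above, against 15.9%, and Idi1, Tm7sf2, Ebp, Scap, Insig2 and Npc1 still overlapped. At an unadjusted p under 0.05, 18 genes were lower, against 6.58% of all genes, and none was higher, against 5.81%. In the other direction 0.0672% of genes passed the adjusted p, none of them listed here. The median log2 fold change was -1.14. By step, the 18 were 8 of 9 genes from acetyl-CoA to the isoprenoids, 3 of 3 from farnesyl diphosphate to lanosterol, 6 of 9 from there to cholesterol, Insig1 of the 4 regulators and neither transporter. Fdps is counted in the 20, the 18 and the 8, though it lies near the floor. It had 13, 25 and 8 reads in control livers and 5 and 1 in Cre livers 82 and 88. Fdps passed the count filter only through control livers, where it was higher, so its call is no support for a lower level. With all mice the count at an unadjusted p was 1. The median with another mouse left out was -0.27 without control liver 42, -0.36 without control liver 83, -0.57 without control liver 90, -0.27 without Cre liver 82 and -0.21 without Cre liver 88.

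The mouse numbers also set liver 49 apart, since 42 and 49 lie far below the other numbers, though the labels give these numbers no meaning. Each genotype has 1 of these mice. With a term for this difference in number, 11 of the 26 genes were lower at an unadjusted p under 0.05 (8.91% of all genes) and 1 was higher (6.12%). None passed an adjusted p of 0.05, where 0.0456% of all genes were called lower by edgeR. Within the 4 mice numbered over 80, 15 genes were lower at an unadjusted p (9.98% of all genes) and 2 were higher (8.79%). There the genotypes did not overlap in 19 genes that were lower (27.1%) and 4 that were higher (26.2%), and the median log2 fold change was -0.89. These mice again leave out liver 49, so their counts largely repeat those without it and are no independent test. Within the pair 42 and 49 the mean of the 26 genes was 0.19 in the control and 0.31 in the Cre liver, so the direction differed between the 2 sets of numbers, and with 1 mouse per genotype this was not tested.

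**Figure D3:**
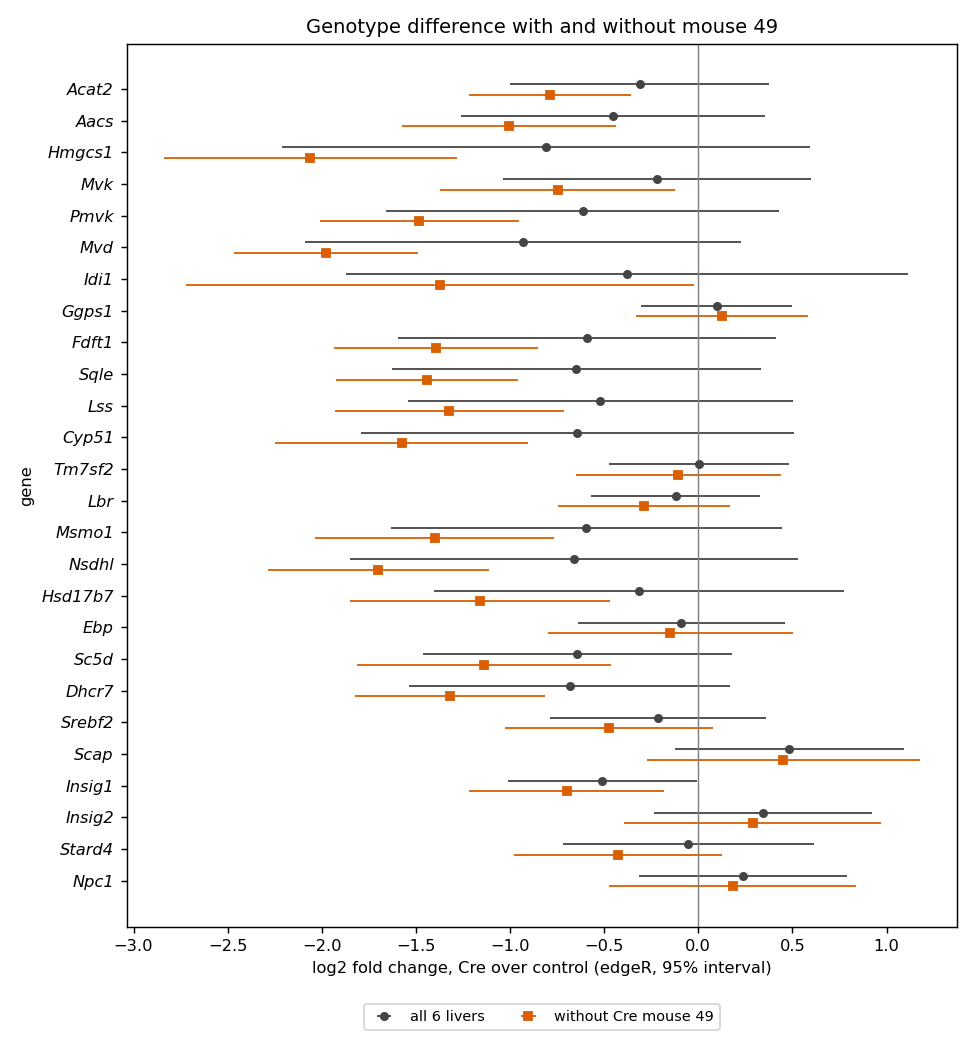
Log2 fold change of Cre over control livers (x axis) with its 95% interval for each gene (y axis), with all 6 livers (circles) and without Cre liver 49 (squares). With all livers every interval but that of Insig1 spans 0; without liver 49 the estimates of most enzymes lie between -0.75 and -2.06.

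Liver 49 also stood apart in stellate cell genes, in the opposite sense. The summed level of the 6 stellate markers was 736, 816 and 752 CPM in control livers 42, 83 and 90. It was 252, 512 and 545 CPM in Cre livers 49, 82 and 88. Liver 49, with the highest mean of the cholesterol genes, had the lowest stellate markers, and it had the highest Prmt1 of the Cre livers. All 6 markers had a negative log2 fold change (52.7% of all genes did), 4 of them with groups that did not overlap (7.95% of all genes were lower in this way), and none was at 0. Summed bile duct markers (4 genes) ranged from 78.8 to 163 CPM in control and from 42.1 to 109 CPM in Cre livers, again lowest in liver 49. Summed lymphocyte markers (4 genes) ranged from 27.9 to 57.3 CPM in control and from 27.2 to 33.5 CPM in Cre livers. Summed macrophage markers (5 genes) were at 171 to 429 and 249 to 323 CPM and endothelial markers (5 genes) at 194 to 298 and 169 to 287 CPM. The part of these cell types in the cholesterol gene levels was not tested.

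Other genes of sterol handling were taken from lists of names. On the same scale as above, their mean in Cre livers 82 and 88 was 0.03 and 0.02 for further synthesis and control genes and 0.07 and 0.12 for uptake genes, close to the control mean of 0. Of 17 further genes of synthesis and SREBP control, 12 had a positive and 5 a negative log2 fold change (median 0.14). Dhdds, which makes dolichol from isoprenoids, was at 31.9, 29.4 and 25.4 CPM in control and 37.3, 38 and 36 CPM in Cre livers, which did not overlap (log2 fold change 0.36, edgeR adjusted p 0.456). Of 14 tested genes of uptake and intracellular transport, 9 were positive and 5 negative (median 0.06). Scarb1, the receptor for high density lipoprotein, was at 121, 107 and 108 CPM in control and 139, 168 and 169 CPM in Cre livers (log2 fold change 0.50, edgeR adjusted p 0.372). Lrp1, a large endocytic receptor, was at 1099, 877 and 467 CPM in control and 1062, 1617 and 1594 CPM in Cre livers, highest in livers 82 and 88.

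A further list held efflux transporters together with Nr1h2 and Nr1h3, which encode the LXR receptors. Its mean was 0.08, -0.05 and -0.03 in control and 0.32, 0.36 and 0.61 in Cre livers, which did not overlap. Of the 7 genes of this efflux and LXR list 6 had a positive log2 fold change (median 0.13), and of 10 tested genes of esterification and oxidation 8 did (median 0.27). Abcg5 and Abcg8 encode the partner transporters that secrete sterol into bile. Abcg5 was at 51.3, 53 and 64 CPM in control and 89.8, 97.4 and 176 CPM in Cre livers 49, 82 and 88 (log2 fold change 1.11, SE 0.27, edgeR adjusted p 0.288). Abcg8 was at 52.1, 36.7 and 39.8 CPM in control and 73.9, 72.6 and 142 CPM in Cre livers (log2 fold change 1.17, SE 0.29, edgeR adjusted p 0.288). In both genes all Cre livers, liver 49 included, lay above all control livers, as in 8.94% of all genes, and liver 88 was the highest. Abcg5 and Abcg8 overlap on opposite strands. Their reads in the shared stretch cannot be told apart without a known strand setting, so they are not independent of each other. The other 5 genes of the efflux and LXR list overlapped between genotypes. Lcat, which esterifies cholesterol in plasma, was at 260.4, 219.6 and 329 CPM in control and 330.0, 409 and 422 CPM in Cre livers. Ces1d, a carboxylesterase, was at 412, 380.4 and 458 CPM in control and 673, 642 and 539.9 CPM in Cre livers. Neither overlapped between genotypes, and neither passed an adjusted p of 0.05 in edgeR (0.451 and 0.384). No gene of these 4 lists passed with all mice.

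**Figure D4:**
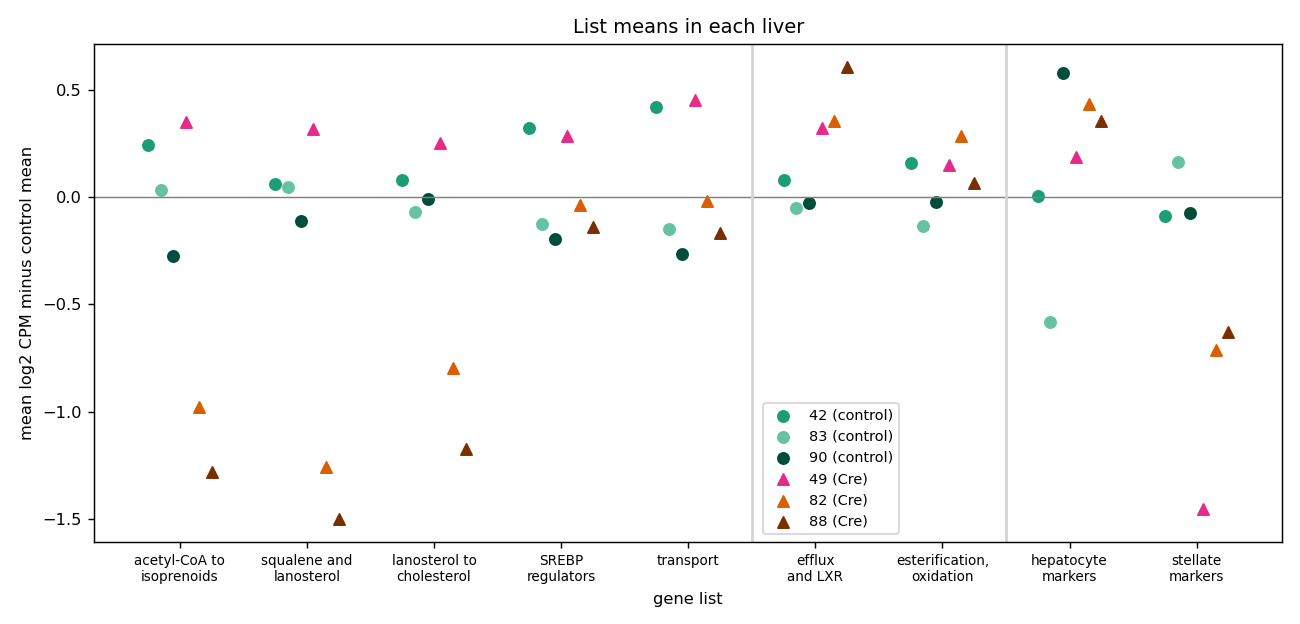
Mean of log2 CPM over the genes of each list, minus the control mean (y axis), in each liver (circles control, triangles Cre), for 5 steps of the pathway, 2 further sterol lists and 2 cell type marker lists (x axis). Livers 82 and 88 are low in the 3 enzyme lists and not in the regulators or in the efflux and LXR list, and liver 49 is lowest in the stellate markers.

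Promoter sequences of 22 of the 27 genes were found in RefSeq (GRCm38.p6). Those of Fdps, Fdft1, Sqle, Stard4 and Npc1 were not matched. The promoters were read because the enzymes were low together in livers 82 and 88, and because SREBP2 is known to bind a sterol regulatory element beside NF-Y, which binds CCAAT boxes. The 250 bases before each RefSeq start were searched on both strands for TCACNCCAC, a form of the sterol regulatory element, for the shorter TCACNCCA that lies inside it, for CCAAT and for the GC box GGGCGG. TCACNCCAC was present in 1 of the 22 genes (4.55%), Hmgcs1, against 1.22% of 27025 genes with a promoter and 1.33% of the 10325 of them tested here. TCACNCCA was present in 3 (13.6%), Hmgcs1, Msmo1 and Srebf2, against 4.2% of all and 3.97% of those tested. CCAAT was present in 19 of 22 (86.4%), against 37.5% and 40.4%, and GGGCGG in 19 of 22 (86.4%), against 35.4% and 62%. A match is a run of letters and not a shown binding site, and the shares were not tested.

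The sequences below show the matches in 5 genes. Hmgcs1 holds TCACNCCAC, and Msmo1 and Srebf2 hold only the shorter TCACNCCA. Mvd is shown because it passed without liver 49, and Insig1 because its groups did not overlap. Capitals mark TCACNCCAC or TCACNCCA and CCAAT or its reverse ATTGG. Each reads 5′ to 3′ on the strand of the gene. The windows of Hmgcs1 and Mvd are the 250 bases before the start, those of Srebf2 and Insig1 are shorter at their 3′ end, and that of Msmo1 is 30 bases around its match.
Hmgcs1 (chr13:119690101-119690350, plus strand): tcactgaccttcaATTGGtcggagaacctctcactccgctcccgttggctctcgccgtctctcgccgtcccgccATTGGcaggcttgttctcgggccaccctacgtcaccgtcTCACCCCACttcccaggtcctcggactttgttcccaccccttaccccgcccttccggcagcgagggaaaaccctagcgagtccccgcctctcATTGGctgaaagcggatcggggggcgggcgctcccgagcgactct
Msmo1 (chr8:64733733-64733762, minus strand): actattcTCACTCCAtccgcgcagCCAATg
Srebf2 (chr15:82147019-82147168, plus strand): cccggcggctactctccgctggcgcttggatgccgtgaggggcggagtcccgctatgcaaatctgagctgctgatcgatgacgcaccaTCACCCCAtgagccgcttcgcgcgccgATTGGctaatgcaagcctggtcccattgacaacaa
Mvd (chr8:122443423-122443672, minus strand): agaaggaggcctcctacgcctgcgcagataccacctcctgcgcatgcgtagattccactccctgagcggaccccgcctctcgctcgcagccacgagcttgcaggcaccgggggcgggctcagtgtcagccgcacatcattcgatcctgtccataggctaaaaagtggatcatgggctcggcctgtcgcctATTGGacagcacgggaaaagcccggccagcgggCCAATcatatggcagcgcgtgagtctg
Insig1 (chr5:28071162-28071351, plus strand): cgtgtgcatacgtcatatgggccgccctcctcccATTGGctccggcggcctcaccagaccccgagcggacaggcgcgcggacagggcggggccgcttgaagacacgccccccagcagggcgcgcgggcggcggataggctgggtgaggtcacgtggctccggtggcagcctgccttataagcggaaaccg
In Hmgcs1 TCACNCCAC begins at base -137, counted from the RefSeq start, and lies between ATTGG matches at -176 and -45. In Msmo1 the shorter TCACNCCA begins at -177, and the nearest CCAAT follows at -160. GENCODE M21 starts Msmo1 further upstream, at chr8:64733792. The printed Msmo1 window thus lies before the RefSeq start but inside the gene as GENCODE annotates it. In Srebf2 TCACNCCA begins at -162 and ATTGG at -135. With CCAAT in 19 of 22 windows, a CCAAT near a match is common among these genes. The window of Mvd holds CCAAT in both directions and no match to TCACNCCA.

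**Figure D5:**
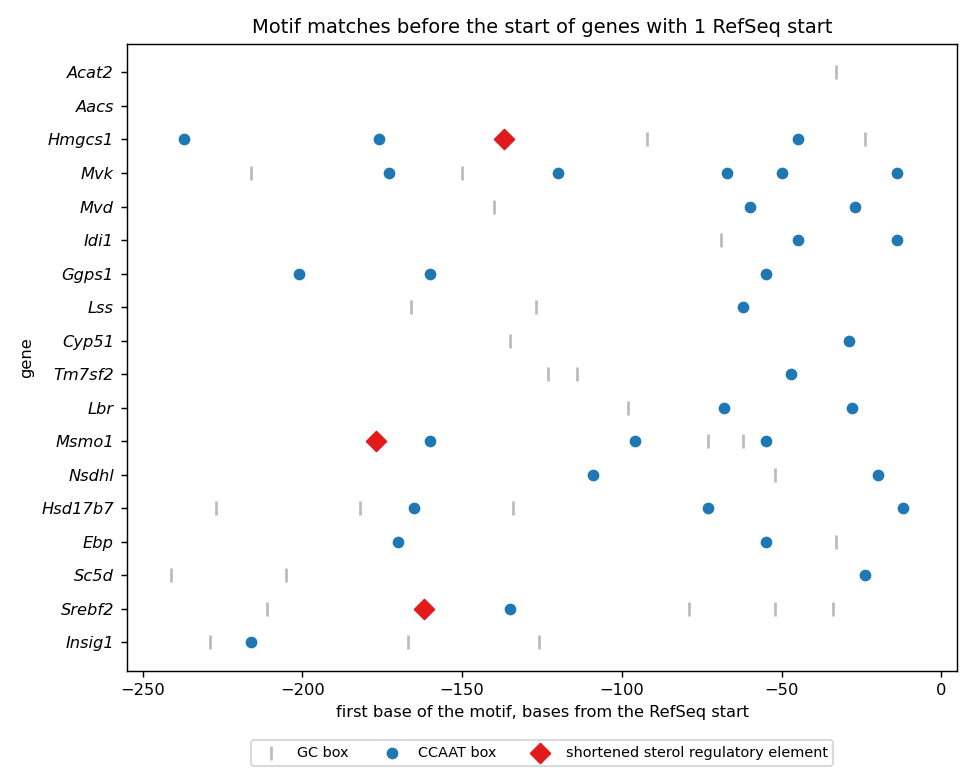
First base of each motif match in bases from the RefSeq start (x axis, linear) for the 18 genes with 1 RefSeq start (y axis). Diamonds mark TCACNCCA, the shortened element, found in Hmgcs1, Msmo1 and Srebf2; circles mark CCAAT on either strand and grey ticks GGGCGG.

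Levels per length, as CPM per kilobase of annotated exons, spanned a wide range among the genes. In control livers Hmgcs1 was the highest at 129 ± 29.9 (SD, n = 3), followed by Insig1 at 107 ± 4.92, Sc5d at 77.4 ± 19.9, Cyp51 at 75.6 ± 4.5, Ebp at 69.5 ± 22.1 and Insig2 at 67.3 ± 17. Neighbours in this order differed by less than the SD of at least 1 of them, except Insig1 and Sc5d. From Fdft1 at 52.9 ± 5.22 to Lss at 9.29 ± 2.35 lay the other tested genes. Ggps1 was the lowest at 3.07 ± 0.0429 and Lbr the next at 4.97 ± 0.404, and these 2 differed by more than their SDs. In Cre livers Insig2 had the highest mean per length at 85.5 ± 16.8, ahead of Insig1 at 75.2 ± 17.3 and Hmgcs1 at 73.9 ± 74.6, differences smaller than these SDs.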

How the data were processed

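The authors deposited raw counts per gene symbol for the 6 livers in a single table. Per the submitters' processing notes, reads went through Trimmomatic, FastQC, STAR and HTSeq on mm10. Of tool versions, annotation, strand setting and the handling of reads with several matches, none is given in the sources used here. The members and lists were chosen with earlier results of these data known. Columns were matched to mice by the mouse number in the titles, and p-values measure the spread between mice. Counts were filtered with filterByExpr, scaled by TMM and tested with edgeR 4.0.16 (R 4.3.3) with genotype as the only term, adjusted p 0.05. Each SE is the fold change over the root of its F statistic, and 95% intervals from the t distribution. List means use log2 CPM with a prior count of 2. Alternatives used DESeq2 1.42.0 and limma 3.58.1. The fit was tested on simulated data, and the outcome is not reported here. Exon lengths and near-identical transcripts (at least 95% over 200 bases) come from GENCODE M21 on GRCm38, the assembly of mm10, and promoters from RefSeq on GRCm38.p6. All 27 genes are named, and of each further list the 2 genes with the smallest p; some genes are not reported here. The promoters of Msmo1, Srebf2, Mvd and Insig1, and the enzymes whose values are given liver by liver, were chosen after their values were seen.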

Additional observations from a re-analysis of the deposited data

How the results depend on the processing

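No paired analysis was possible because the genotypes share no mouse number. Of the 26 tested genes, 20 kept their sign in all 14 alternatives. Signs turned for Ggps1 with total counts only (-0.054) and for Tm7sf2 with total counts only (-0.13), no filter (-0.013), at least 1 CPM in 3 samples (-0.00040), limma-voom (-0.016) and the mice numbered over 80 alone (-0.19). With 1 mouse left out, Tm7sf2 ranged from -0.11 to 0.15, Stard4 from -0.43 to 0.13, Idi1 from -1.37 to 0.019, Ebp from -0.23 to 0.16 and Mvk from -0.75 to 0.029. The median of the 26 genes stayed negative, from -1.14 to -0.21 with 1 mouse left out, and the shift of their mean from -0.90 to -0.27. Total counts only moved the median of all genes to -0.17 and that of the members to -0.56. Genes past adjusted p 0.05 numbered 238 with DESeq2, 4 with no filter, 6 with the mouse number term and 0 to 13 with 1 mouse left out; the members' counts were 0, except for 1 (Mvd) without liver 49. Members lower at an unadjusted p numbered 2 with no filter (background 6.42%), 2 with limma-voom (5.42%), 11 with the mouse number term (background 8.91%), 15 in the mice numbered over 80 alone (9.98%) and 0 to 18 with 1 mouse left out (18 without liver 49, 6.58%). Members higher numbered 1 with the term (6.12%), 2 over 80 alone (8.79%) and 0 to 2 with 1 mouse left out (2 without liver 42, 9.13%). Groups did not overlap in 19 lower and 4 higher members over 80 alone (27.1% and 26.2% of all genes), in 0 higher with total counts only (3.6%), and in 1 to 20 lower (20 without liver 49, 17.2%) and 0 to 4 higher (4 without liver 42, 20%) with 1 mouse left out. The 18 and the 20 without liver 49 include Fdps, whose counts were near the floor. The larger SD among Cre livers held for 12 members without liver 49 (19.3% of all genes) and 22 with it (36.6%), an alternative chosen after seeing the data. The cause was not tested. With 3 mice a group the intervals were wide, and any fold change within a printed interval is compatible with the data.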
